A study of Mus musculus with 3 samples.

Results

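The subunits and receptors that bind glutamate and GABA were examined in lumbar dorsal root ganglia (DRG) of mice by single-nucleus RNA sequencing. All genes of the deposited tables whose symbol names an AMPA, kainate, NMDA, delta or metabotropic glutamate receptor or a GABA-A or GABA-B receptor were taken as members, which gave 47 of 32227 genes. They were 4 AMPA, 5 kainate, 7 NMDA and 2 delta subunits, 8 metabotropic glutamate receptors, 19 GABA-A subunits and 2 GABA-B subunits. The study compared DRG L3 to L5 of C57BL/6 mice at 3 months (adult, 1 library) and 21 months (aged, 2 libraries), with no treatment or transgene named in the labels. The labels give male for all libraries, whereas the study's methods give female for aged mice. Xist, the RNA of the inactive X chromosome, had a UMI in 2898 of 2931, 276 of 283 and 166 of 166 nuclei of the SGC-like class described below (adult, aged replicate 1, aged replicate 2), and the Y-linked gene Ddx3y in 113, 14 and 5 of them, so all 3 libraries went against a label of male. Nuclei were captured by PIP-seq, in which nuclei are held with barcoded particles and counts are of UMIs (unique molecular identifiers), 1 for every transcript caught. The number of mice per library is not in the labels, so a library was taken as 1 replicate, and the spread between libraries may be technical. Since only 1 library is adult, age and every other property of that library cannot be told apart.

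Glutamate is the transmitter that DRG neurons release in the spinal cord, and AMPA, kainate and NMDA receptors are ion channels that it opens. Metabotropic glutamate (mGlu) receptors and GABA-B receptors act through G proteins. GABA-A receptors are chloride channels of 5 subunits, and GABA depolarises the cell bodies and terminals of sensory neurons, which hold a high level of chloride. Satellite glial cells (SGCs) wrap the cell bodies of these neurons, and Schwann cells accompany their axons.

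Nuclei were taken as barcodes with over 1000 genes, and numbered 11518, 5130 and 2611. Values of the 3 libraries are given throughout in the order adult, aged replicate 1, aged replicate 2. The libraries held 167664164, 95647106 and 69045987 UMIs, and pairs of libraries shared at most 1 barcode among kept nuclei. Nuclei were put in classes by UMIs of fixed marker genes, none of which is a member, so the gate did not use the receptor genes. Nuclei that met the limits of no class were set aside. Names end in "-like" because the classes rest on markers alone. Neuron-like nuclei numbered 3763, 2111 and 1202, and SGC-like nuclei 2931, 283 and 166. Non-myelinating Schwann cell (NMSC)-like nuclei numbered 221, 262 and 127, and myelinating Schwann cell (MSC)-like nuclei 418, 412 and 135. The other classes tested were fibroblast-like, endothelial-like, myeloid-like and B cell-like, with at least 22 nuclei per library. All 12 neuron markers were highest in neuron-like nuclei, whereas 3 of the 7 SGC markers were highest in SGC-like nuclei and 6 of 7 were more than 2-fold above the mean of the other classes there. Of 7 NMSC markers, 5 were highest in NMSC-like nuclei. Their sum stood at 18943.8, 18519.5 and 17489.5 CPM there and at 15408.8, 11756.1 and 11945.5 CPM in SGC-like nuclei. The gate used these markers, so such counts were partly fixed in advance. UMIs were summed per class and library, and a level is given as counts per 1e6 UMIs of that sum (CPM). Sums held 61511644, 37469740 and 28665428 UMIs in neuron-like nuclei, down to 63102 in B cell-like nuclei of aged replicate 2. Sensory neuron genes were also detected in other nuclei, where a list of them outside the gate (carryover genes) stood at 0.106 to 0.153 of its neuron-like level in SGC-like nuclei and at 0.0769 to 0.237 in the other non-neuronal classes tested, in every class highest in the adult library. The source of these UMIs was not tested, and outside neurons members are compared with that carryover share of their neuron-like level. Carryover genes stood at 5606, 7663 and 6877 CPM in free RNA (from barcodes with few UMIs). In neuron-like nuclei they stood at 4085, 4231 and 3619 CPM. Members did not all share that rise in free RNA, so a level at or below the share does not show that a member was carryover.

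The members lie on 13 chromosomes (GENCODE M21, build GRCm38), and several GABA-A genes form clusters. Gabrg1, Gabra2, Gabra4 and Gabrb1 lie within chr5:70751047-72149037, and Gabre, Gabra3 and Gabrq within chrX:72255999-72842602. Gabra4 and Gabrb1 are transcribed away from each other and overlap by 196 bases at their starts. Whether counting used strand is not given in the sources used here, so reads from such an overlap cannot be assigned with certainty. Promoter windows of 250 bases before the start were found in RefSeq (GRCm38.p6) for 32 members. GGGCGG, the GC box, was present on either strand in windows of 17 of the 32 members and in 32.7% of all 32851 windows. TATAAA was in windows of 3 members (12.4% of all windows), ACAAAG, the core bound by SOX factors, in 3 (16.5%), the NRF1 motif in 1 (3.74%), and TGACGTCA, the cAMP response element, in 0 (1.55%). A member was counted if any of its windows held the motif, whereas the shares are of single windows, so the units differ. No motif contains another, and a match is a description of the window only. Shown here are the windows of the glial Grik2 and Grik3, of Grm7, which was high in neurons, and of Grm3 and Gabra4, which were high in the same neuron subtype, with GC boxes in capitals and any bases in annotated exons of coding genes left out.
Grik2 (chr10:49788767-49789004, minus strand): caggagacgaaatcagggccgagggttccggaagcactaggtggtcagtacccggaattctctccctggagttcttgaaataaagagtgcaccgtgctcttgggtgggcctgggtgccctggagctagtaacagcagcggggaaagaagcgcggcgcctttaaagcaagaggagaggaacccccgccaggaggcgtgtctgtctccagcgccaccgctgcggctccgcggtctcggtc
Grik3 (chr4:125490446-125490695, plus strand): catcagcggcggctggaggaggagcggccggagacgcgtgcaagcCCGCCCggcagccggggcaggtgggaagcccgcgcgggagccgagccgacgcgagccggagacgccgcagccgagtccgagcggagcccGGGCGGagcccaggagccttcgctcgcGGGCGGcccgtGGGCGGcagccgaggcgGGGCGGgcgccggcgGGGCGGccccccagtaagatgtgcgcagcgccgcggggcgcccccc
Grm7 (chr6:110645262-110645511, plus strand): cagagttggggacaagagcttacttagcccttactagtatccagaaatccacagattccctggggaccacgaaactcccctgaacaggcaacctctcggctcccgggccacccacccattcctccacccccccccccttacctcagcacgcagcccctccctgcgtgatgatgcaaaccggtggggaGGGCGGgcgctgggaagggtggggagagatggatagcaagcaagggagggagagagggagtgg
Grm3 (chr5:9725353-9725602, minus strand): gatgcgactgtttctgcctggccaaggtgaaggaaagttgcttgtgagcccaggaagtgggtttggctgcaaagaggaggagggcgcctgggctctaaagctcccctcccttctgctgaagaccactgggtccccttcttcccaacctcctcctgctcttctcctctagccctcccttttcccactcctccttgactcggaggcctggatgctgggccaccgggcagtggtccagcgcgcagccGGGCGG
Gabra4 (chr5:71658364-71658558, minus strand, within Gabrb1): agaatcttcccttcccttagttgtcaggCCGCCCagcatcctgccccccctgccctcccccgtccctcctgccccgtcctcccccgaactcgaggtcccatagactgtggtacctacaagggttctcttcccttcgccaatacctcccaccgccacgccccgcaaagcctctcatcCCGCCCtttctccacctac
The window of Grik3 held 6 GC boxes and 82% G and C, against a median of 52.4% over all windows, and that of Grik2 held none.

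Of all member UMIs in gated nuclei (1325802), 89.8% lay in neuron-like nuclei, which held 81.8% of the UMIs of all genes. Of the 47 members, 32 passed the filter on low counts over classes, and a member that passed through neuron-like sums alone had to be higher there, so the counts below describe the members that passed. In neuron-like nuclei 24 of 32 members were higher than the mean of the other classes (36.3% of 13404 genes were higher) and 3 were lower (30.0% of genes), by edgeR with adjusted p under 0.05. The median log2 difference of the 32 members was 2.95, against 0.06 over all genes. A ± beside a log2 value is its standard error, computed from the edgeR test statistic. In SGC-like nuclei 12 members were higher (20.5% of genes) and 5 lower (14.4%). In NMSC-like nuclei 10 were higher (14.0%) and 1 was lower (5.53%). Ranked by mean level, 25 of the 41 members with 50 or more UMIs were highest in neuron-like nuclei, and for 18 of these the lowest neuron-like library lay above every library of the other 7 classes. Grid1 and Grik3 stood apart in the same way in SGC-like nuclei, Grik2 in NMSC-like nuclei and Grin2b in fibroblast-like nuclei. No share over all genes is given for the counts of 25 and 18, so whether they are unusual for members was not tested. Neuron-like nuclei held 81.8% of the UMIs of all genes. Gabra6, Gabrq, Gabrr1, Grin3b, Grm2 and Grm6 had under 50 UMIs.

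**Figure D1:**
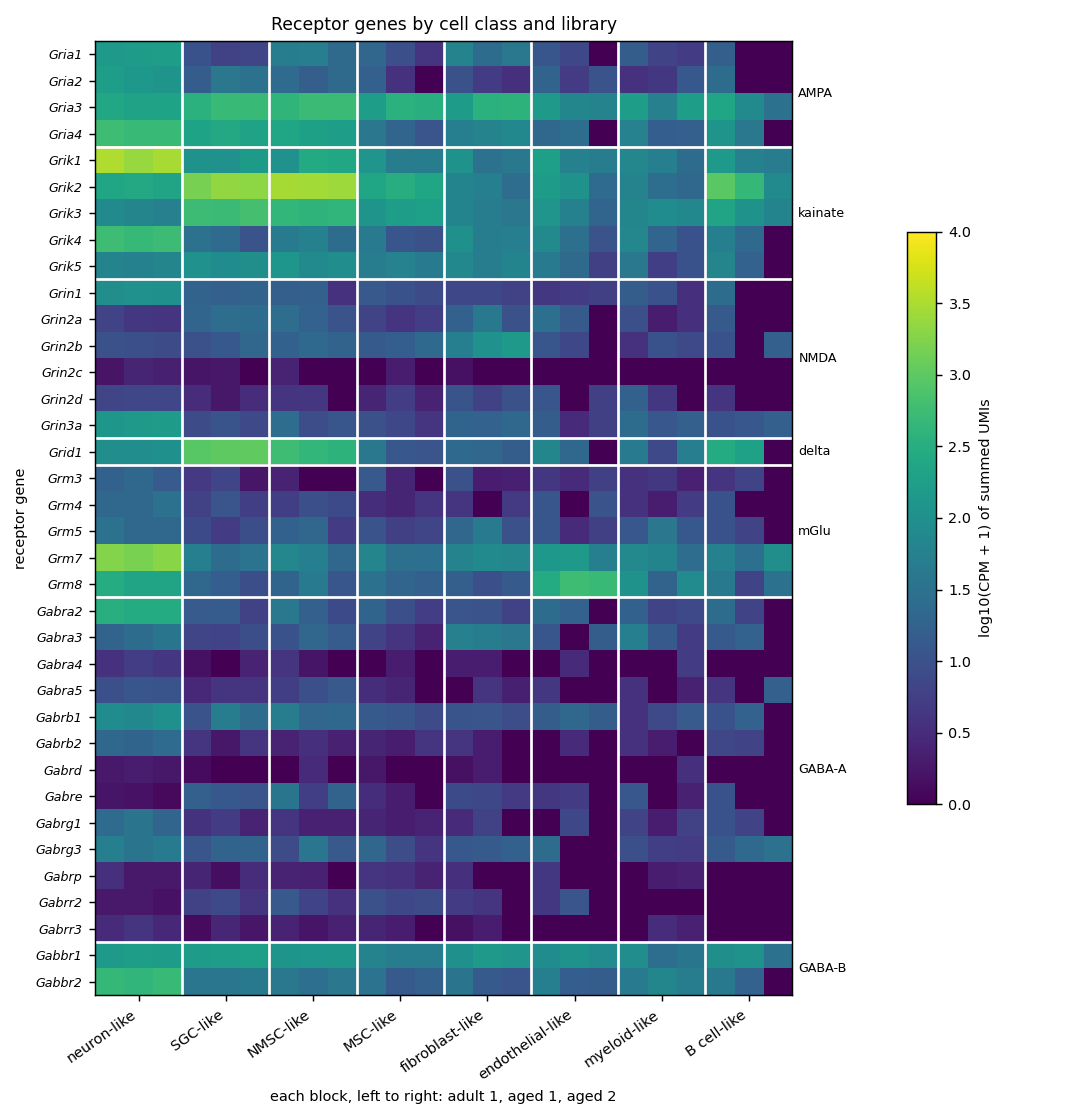
Level of 36 of the 41 members with 50 or more UMIs (rows, by family) in 8 cell classes, each with its 3 libraries as columns, as log10(CPM + 1) of summed UMIs. Most rows are brightest in the neuron-like block, while Grik2, Grik3 and Grid1 are brightest in the SGC-like and NMSC-like blocks.

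Kainate receptors split between neurons and glia. Grik1, which encodes the GluK1 subunit known from nociceptors, stood at 3347, 2434 and 2944 CPM in neuron-like nuclei and at 112, 106 and 152 CPM in SGC-like nuclei. Its neuron-like level was above every library of the other classes, with a log2 difference of 5.26 ± 0.23 (adjusted p = 9.1e-15). Grik4, a high-affinity subunit that needs a partner of the Grik1 to Grik3 group, also followed neurons (571, 470.1 and 557 CPM), with a log2 difference of 4.38 ± 0.21 (adjusted p = 2.7e-14). Grik2, which encodes GluK2, went the other way. It stood at 2842, 2778 and 2598 CPM in NMSC-like nuclei, 1500.4, 2281 and 2093 CPM in SGC-like nuclei and 223, 256 and 215 CPM in neuron-like nuclei. Its log2 difference from the other classes was 3.96 ± 0.25 (adjusted p = 8.8e-11) in NMSC-like and 3.58 ± 0.25 (adjusted p = 1.7e-10) in SGC-like nuclei. Grik3 was lower in neuron-like nuclei, with a log2 difference of -0.93 ± 0.24 (adjusted p = 0.00164), and higher in SGC-like nuclei, with 2.66 ± 0.19 (adjusted p = 2.0e-10). It stood at 80.9, 66.2 and 53.3 CPM in the former and 554, 528 and 653 CPM in the latter, with no overlap. Grik5, the other high-affinity subunit, stood at 61.7, 56.0 and 65.9 CPM in neuron-like and 104, 86.7 and 94.8 CPM in SGC-like nuclei, which did not overlap. Both were higher than the mean of the other classes, with log2 differences of 0.67 ± 0.21 (adjusted p = 0.00874) and 1.38 ± 0.22 (adjusted p = 2.4e-05).

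Delta receptors are orphan members of the glutamate receptor family that organise synapses. Among them, Grid1 was higher in SGC-like and NMSC-like nuclei. It stood at 921, 1005 and 1061 CPM in SGC-like nuclei, at 562, 445 and 381 CPM in NMSC-like nuclei and at 93.8, 91.8 and 101 CPM in neuron-like nuclei. In MSC-like nuclei Grid1 stood at 38.8, 11.1 and 10.2 CPM, below every neuron-like library. Its log2 difference in SGC-like nuclei, 4.31 ± 0.28 (adjusted p = 5.1e-11), was the largest of any member in that class. Grid1 and Grik2 lay above the carryover share in SGC-like and NMSC-like nuclei of all 3 libraries. Grid1 did not pass the test in neuron-like nuclei, with a log2 difference of 0.43 ± 0.34 (adjusted p = 0.279). B cell-like nuclei held Grik2 at 957, 463 and 79.2 CPM, while the summed SGC markers there stood at 1059, 604 and 63.4 CPM in the same libraries. The part of SGC transcripts in those values was not tested.

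Among AMPA receptors, Gria4 stood at 569, 518 and 507 CPM in neuron-like nuclei, with 209, 254 and 202 CPM in SGC-like and 229, 186 and 167 CPM in NMSC-like nuclei. It was higher in all 3, with log2 differences of 3.45 ± 0.22 (adjusted p = 4.2e-12), 2.02 ± 0.24 (adjusted p = 5.7e-07) and 1.65 ± 0.26 (adjusted p = 4.4e-05). Gria2, whose edited product makes AMPA channels impermeable to calcium, stood at 173, 135 and 118 CPM in neuron-like nuclei and at 14.2, 37.3 and 29.9 CPM in SGC-like nuclei. Its log2 difference in neuron-like nuclei was 3.93 ± 0.27 (adjusted p = 2.4e-11), and that of Gria1 was 3.92 ± 0.20 (adjusted p = 1.3e-13). Gria1 was lower in SGC-like nuclei, with a log2 difference of -1.32 ± 0.35 (adjusted p = 0.00468), and higher in fibroblast-like nuclei (59.4, 25.2 and 38.3 CPM), with 1.34 ± 0.29 (adjusted p = 9.0e-04). Gria3 was higher in SGC-like and NMSC-like nuclei. It stood at 358, 509 and 511 CPM in SGC-like and 412, 532 and 537 CPM in NMSC-like nuclei, above the 245, 199.9 and 210.1 CPM of neuron-like nuclei in each library. The log2 differences from the other classes were 1.38 ± 0.28 and 1.38 ± 0.28.

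NMDA receptors need GluN1, the product of Grin1, which stood at 93.0, 103 and 101 CPM in neuron-like nuclei and at 17.9, 15.9 and 17.9 CPM in SGC-like nuclei. The log2 difference in neuron-like nuclei was 3.68 ± 0.19 (adjusted p = 1.2e-13). Per 100 kb of gene, the GluN2 subunits that form the glutamate site were lower than Grin1, at 12.9 ± 0.454 CPM for Grin2d, 6.39 ± 2.81 CPM for Grin2c, 1.81 ± 0.143 CPM for Grin2b and 0.948 ± 0.323 CPM for Grin2a against 354 ± 19.4 CPM (mean ± SD, n = 3). Grin2b had 8.84, 8.62 and 7.60 CPM and Grin2a 5.62, 3.496 and 3.04 CPM in neuron-like nuclei, and Grin2a was lower there than in the other classes, with a log2 difference of -1.08 ± 0.36 (adjusted p = 0.0124). Grin3a, which encodes a glycine-binding subunit, was the other neuronal NMDA gene, at 128, 139 and 161 CPM and a log2 difference of 3.97 ± 0.16 (adjusted p = 2.5e-15). Grin2b was highest in fibroblast-like nuclei, at 51.6, 106 and 143 CPM (98, 101 and 112 UMIs), with a log2 difference of 3.13 ± 0.24 (adjusted p = 7.0e-10). All 3 fibroblast-like libraries lay above every library of the other classes. Grin2a passed in SGC-like and fibroblast-like nuclei as well, with log2 differences of 1.77 ± 0.34 and 1.32 ± 0.39.

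Grm7, a presynaptic group III mGlu receptor, stood at 1798, 1578 and 1941 CPM in neuron-like nuclei and at 52.2, 25.1 and 32.8 CPM in SGC-like nuclei. Its log2 difference in neuron-like nuclei, 5.28 ± 0.19 (adjusted p = 3.1e-16), was the largest of any member. Grm8, also of group III, had high levels in both neuron-like (295, 215 and 217 CPM) and endothelial-like nuclei (285, 575 and 517 CPM, 81, 273 and 109 UMIs). The log2 difference in endothelial-like nuclei was 3.78 ± 0.29 (adjusted p = 6.1e-10), and free RNA held Grm8 at 156, 124 and 116 CPM. Grm8 was the only member higher in endothelial-like nuclei (13.8% of genes were higher), where 6 members were lower (9.64% of genes). Grm3, Grm4 and Grm5 stood at 16.5, 21.4 and 13.01, 20.6, 21.7 and 29.9 and 31.8, 20.4 and 20.4 CPM in neuron-like nuclei and were all higher there, with log2 differences of 3.07 ± 0.37, 2.74 ± 0.28 and 1.55 ± 0.29. Grm5 was also higher in fibroblast-like nuclei, with 1.11 ± 0.38 (adjusted p = 0.0279).

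**Figure D2:**
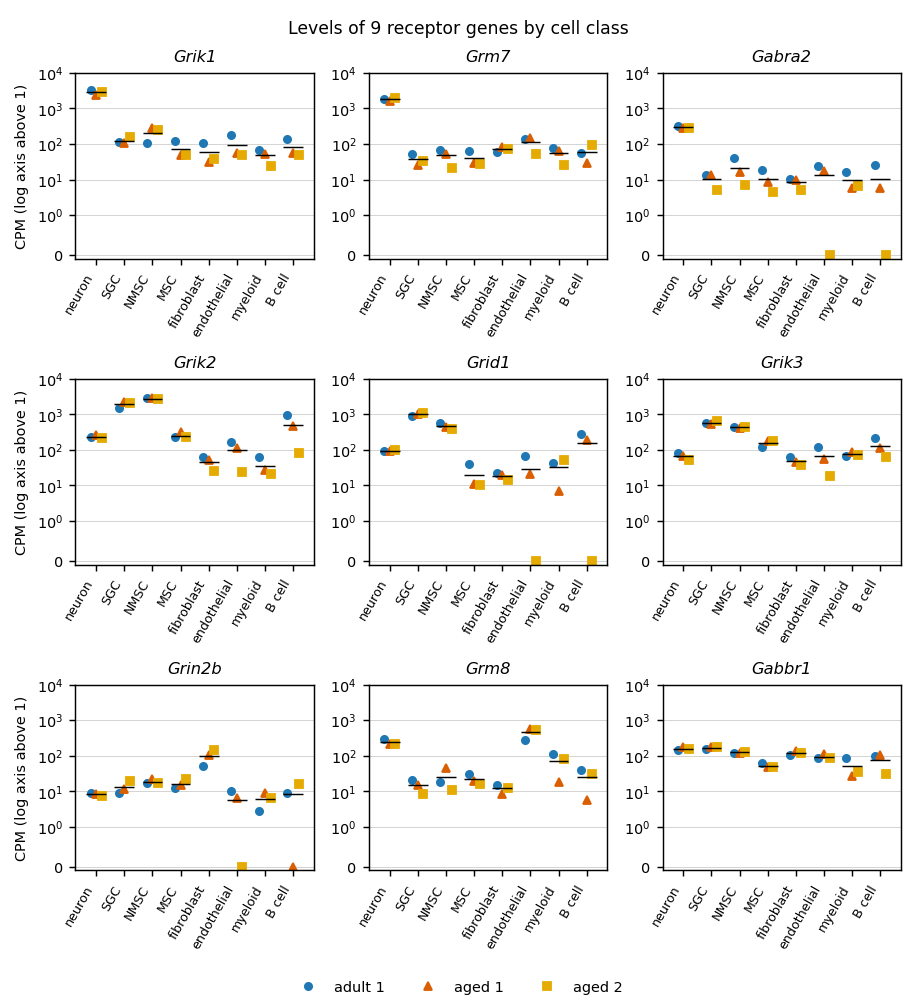
Level of 9 members in the 8 marker-gated classes, in CPM on an axis that is logarithmic above 1. Points are libraries and lines are the mean of 3 libraries. Grik1, Grm7 and Gabra2 are highest in neurons, Grik2, Grid1 and Grik3 in SGC and NMSC nuclei, Grin2b in fibroblasts and Grm8 in endothelial nuclei, while the mean of Gabbr1 runs from 50.3 CPM in myeloid to 169 CPM in SGC nuclei.

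Of the 19 GABA-A subunits, 10 passed the filter, of which 9 were higher in neuron-like nuclei, where 36.3% of all genes were, and Gabre was lower. A subunit that passed through neuron-like sums alone had to be higher there. Gabra2, an alpha subunit, stood at 326, 288 and 283 CPM in neuron-like and 13.05, 13.4 and 5.22 CPM in SGC-like nuclei, a log2 difference of 4.96 ± 0.18 (adjusted p = 2.7e-16). Its neuron-like libraries lay above all others. Gabrb1 (87.4, 72.9 and 100.4 CPM), Gabrb2 (20.6, 18.5 and 24.2 CPM), Gabrg1 (24.2, 33.3 and 18.8 CPM) and Gabrg3 (52.4, 34.1 and 44.3 CPM) passed in neuron-like nuclei with log2 differences of 2.85, 3.68, 3.44 and 2.12. Gabra3 was higher in neuron-like nuclei (18.0, 24.7 and 34.9 CPM) and also in fibroblast-like nuclei (55.2, 49.4 and 37.0 CPM), with log2 differences of 1.40 ± 0.31 (adjusted p = 4.2e-04) and 2.11 ± 0.35 (adjusted p = 5.4e-05). Gabre, which encodes the epsilon subunit, was at 0.699, 0.587 and 0.279 CPM in neuron-like, 15.9, 11.7 and 10.4 CPM in SGC-like (156, 28 and 14 UMIs) and 34.8, 4.61 and 17.7 CPM in NMSC-like nuclei. Its log2 differences were -2.92 ± 0.50 (adjusted p = 2.1e-05), 2.27 ± 0.39 (adjusted p = 7.6e-05) and 2.60 ± 0.46 (adjusted p = 1.7e-04). Gabrr2, a rho subunit that did not pass the filter, had 50, 16 and 4 UMIs in SGC-like and 54, 32 and 17 UMIs in neuron-like nuclei.

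The GABA-B receptor is a pair of products, of which Gabbr1 binds GABA and Gabbr2 couples to G proteins. Gabbr2 was neuronal, at 461, 425 and 495 CPM in neuron-like and 35.8, 35.6 and 41.0 CPM in SGC-like nuclei, a log2 difference of 4.19 ± 0.18 (adjusted p = 4.5e-15). Gabbr1 was spread over the classes. It stood at 141, 173 and 157 CPM in neuron-like, 159, 171 and 178 CPM in SGC-like, 118, 123.17 and 129.7 CPM in NMSC-like and 102, 139.9 and 119 CPM in fibroblast-like nuclei, and neuron-like and SGC-like libraries overlapped. It was higher than the mean of the other classes in neuron-like and SGC-like nuclei, with log2 differences of 1.00 ± 0.16 (adjusted p = 1.3e-05) and 1.12 ± 0.17 (adjusted p = 1.3e-05). In SGC-like nuclei of all 3 libraries the level of Gabbr2 was at or below the carryover share, and that of Gabbr1 was above it. Free RNA held Gabbr2 at 250, 219 and 249 CPM, below its neuron-like level, and Gabbr1 at 209, 228 and 252 CPM, above its own. Carryover genes were higher in free RNA than in neuron-like nuclei, whereas Gabbr2 was lower, and the share was measured on the carryover genes alone. The part of carryover in its SGC-like level was not tested.

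In the remaining classes most members that passed were lower. MSC-like nuclei had 12 lower members (16.8% of genes) and 0 higher ones (18.9% of genes), with 0 higher members at unadjusted p under 0.05 by edgeR and 0 by DESeq2. Fibroblast-like nuclei had 5 higher (18.0%) and 10 lower members (12.0%), the higher ones being Grin2b, Gabra3, Gria1, Grin2a and Grm5. Myeloid-like nuclei had 17 lower members (20.3%) and 0 higher ones (21.5%), with 1 higher member at unadjusted p under 0.05 by edgeR and 0 by DESeq2. In B cell-like nuclei 0 members passed in either direction (9.28% of genes were higher and 7.62% lower), where 6 had unadjusted p under 0.05 and DESeq2 called 1. Without aged replicate 1, the members called fell from 12 to 4 in MSC-like, from 7 to 2 in endothelial-like and from 17 to 7 in myeloid-like nuclei. Without aged replicate 2 there were 10 in myeloid-like nuclei, and without the adult library there were 11 in endothelial-like nuclei. No share over all genes is given for these counts or for those by DESeq2. Whether the changes are particular to members was not tested.

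Levels of different members were compared per 100 kb of gene, since longer genes yield more nuclear reads. On that scale Grik1 led in neuron-like nuclei at 738 ± 116 CPM per 100 kb (SD, n = 3), followed by Gabbr1 at 541 ± 55.0 and Grin1 at 354 ± 19.4. Not divided by length, Grik1 also led, at 2909 CPM, but Grm7 (1772), Grik4 (533), Gria4 (531) and Gabbr2 (460.4) followed, with Gabbr1 at 157 and Grin1 at 99.2 CPM. Per 100 kb, Gabra2 (216 ± 17.1) and Grm7 (192 ± 19.8) came next and did not differ beyond their spread. Gria4 (140.5 ± 8.81), Gabbr2 (139.7 ± 10.6), Grik4 (125 ± 12.8) and Gria2 (117 ± 23.1) formed a further group within their spread of each other. Grik5 (97.9 ± 7.95) came between these and the pair of Gria3 (78.7 ± 8.62) and Grin3a (77.5 ± 8.93), which did not differ beyond their spread.

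Neuron subtypes were gated in the same way among neuron-like nuclei: NP1-like (Mrgprd non-peptidergic nociceptors; 520, 268 and 219 nuclei), NP3-like (Sst and Nppb itch neurons; 87, 64 and 36), PEP-like (peptidergic C fibres; 539, 229 and 164), Trpm8-like (cold-sensing; 117, 52 and 30), TH-like (low-threshold C fibres; 429, 98 and 112) and NF-like (large neurons rich in neurofilament; 585, 549 and 195). The other 2783 neuron-like nuclei were not assigned. Every subtype marker found in the files was highest in its subtype, which was largely fixed in advance because the gate used these markers. Of the 47 members, 39 passed the filter on low counts over subtypes. A member that passed through the sums of 1 subtype alone had to be higher there, so the counts below describe the members that passed. In Trpm8-like nuclei 20 of 39 members were higher than the mean of the other subtypes (12.7% of 15648 genes) and 5 were lower (10.9%), with a median log2 difference of 0.66 against -0.04 over all genes. In NP1-like nuclei 9 were higher (19.2%) and 19 lower (18.7%), with a median of -0.66. PEP-like nuclei had 13 higher (16.6%) and 14 lower (12.5%), NP3-like 4 higher (11.8%) and 13 lower (9.68%), TH-like 13 higher (19.3%) and 9 lower (17.8%), and NF-like 14 higher (32.9%) and 12 lower (27.5%). The NF-like shares of members lay near those of all genes. NF-like nuclei differed in quality too: 266 of 585, 443 of 549 and 157 of 195 had under 1% of UMIs in Malat1, a nuclear RNA, and summed SGC markers stood at 277 to 413 CPM in them against 80.1 to 238 CPM in the other 5 subtypes. The part of either in the NF-like values was not tested beyond leaving those nuclei out.

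**Figure D3:**
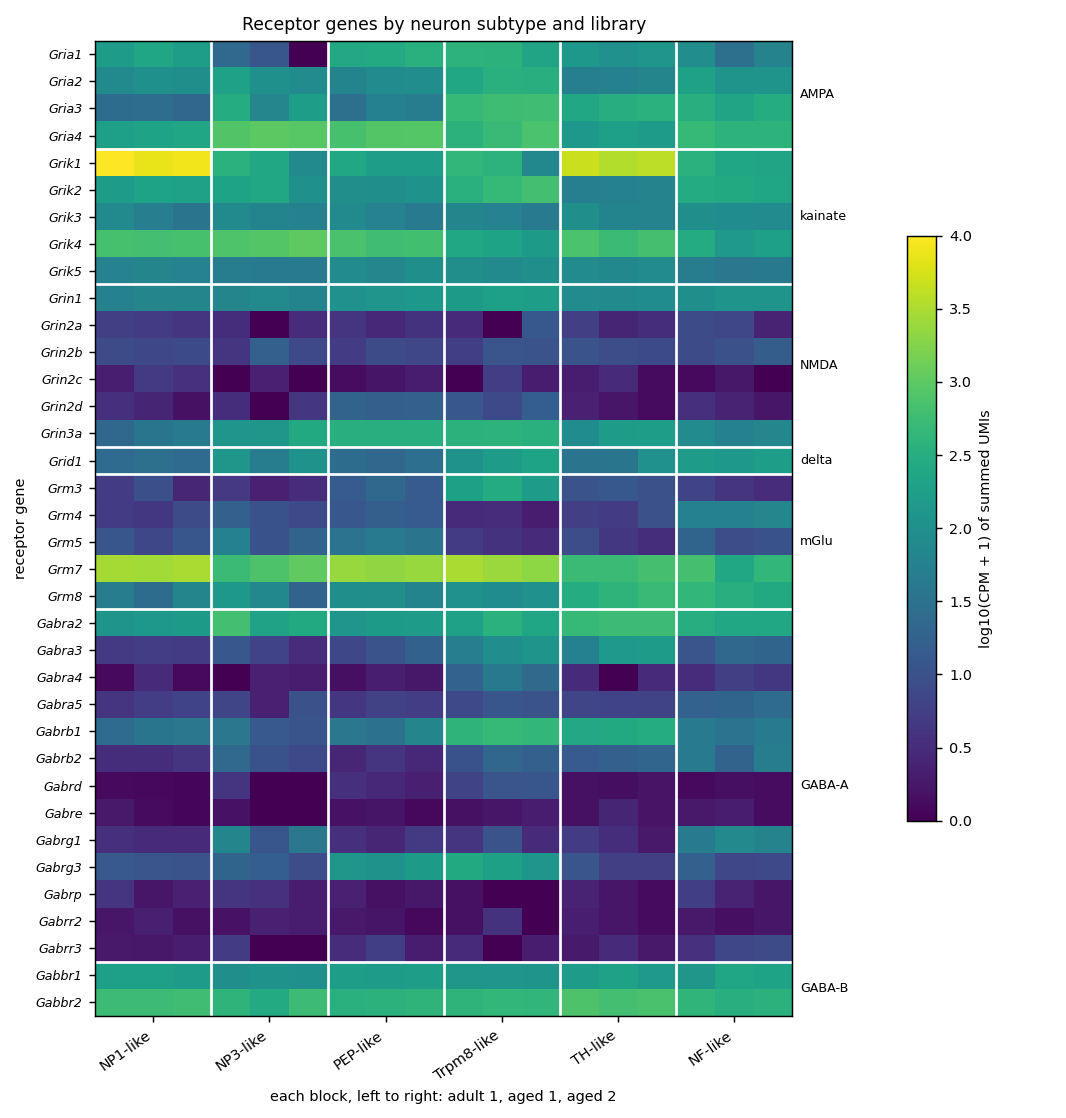
Level of 36 of the 41 members with 50 or more UMIs (rows, by family) in 6 neuron subtypes, each with its 3 libraries as columns, as log10(CPM + 1) of summed UMIs. Grik1 is brightest in the NP1-like and TH-like blocks, and many rows are brightest in the Trpm8-like block.

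Among kainate genes, Grik1 stood at 11472, 7396 and 8082 CPM in NP1-like and 4850.0, 3469.8 and 3980.1 CPM in TH-like nuclei, and at 250.02, 172 and 167 CPM in PEP-like and 364, 227 and 214 CPM in NF-like nuclei. All NP1-like libraries lay above all TH-like ones, and these above the rest. The log2 differences were 4.52 ± 0.22 (adjusted p = 1.7e-11) in NP1-like and 3.21 ± 0.22 (adjusted p = 1.8e-09) in TH-like nuclei, and -2.12, -2.27, -1.62 and -1.72 in NP3-like, PEP-like, Trpm8-like and NF-like nuclei, all past the threshold. Free RNA held Grik1 at 1261, 1024 and 1233 CPM, above every library of these 4 subtypes, and its part in their values was not tested. Grik4 was lowest in NF-like (285, 145 and 179 CPM) and Trpm8-like nuclei (252, 210.4 and 150.1 CPM), with log2 differences of -1.51 ± 0.16 (adjusted p = 3.4e-07) and -1.44 ± 0.16 (adjusted p = 2.7e-06), and highest in NP3-like nuclei (782, 845 and 1012 CPM). Grik2 was highest in Trpm8-like nuclei (345, 471 and 629 CPM), with a log2 difference of 1.75 ± 0.16 (adjusted p = 1.2e-07). Grik3 passed only in NF-like nuclei, with 0.55 ± 0.12 (adjusted p = 6.0e-04), and stood between 55.2 and 90.4 CPM in the means of the 6 subtypes. Free RNA held Grik3 at 229, 147 and 133 CPM, above every library of the 6 subtypes. Summed SGC markers were highest in NF-like nuclei, at 277, 413 and 327 CPM, and Grik3 was high in SGC-like nuclei. The part of either in the NF-like value was not tested.

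AMPA genes differed between nociceptor types. Gria1 stood at 259.9, 276 and 348 CPM in PEP-like and 381, 366 and 216 CPM in Trpm8-like nuclei, and at 22.5, 10.6 and 0 CPM in NP3-like nuclei (38, 8 and 0 UMIs). The log2 difference in NP3-like nuclei, -3.77 ± 0.44 (adjusted p = 4.0e-06), was the largest fall of any member there. Gria3 was low in NP1-like (24.7, 25.7 and 19.99 CPM) and PEP-like nuclei (29.1, 56.4 and 48.4 CPM) and high in Trpm8-like (476, 568 and 596 CPM) and TH-like nuclei (241, 314 and 354 CPM). Its log2 differences were -3.05 ± 0.31 (adjusted p = 2.5e-07), -2.11 ± 0.29 (adjusted p = 1.5e-05), 2.28 ± 0.22 (adjusted p = 2.4e-07) and 1.38 ± 0.22 (adjusted p = 6.8e-05). Gria4 was highest in NP3-like (823, 969 and 910.4 CPM) and PEP-like nuclei (694, 845 and 870.4 CPM), which overlapped, with log2 differences of 1.29 ± 0.12 (adjusted p = 2.8e-07) and 1.05 ± 0.12 (adjusted p = 1.6e-06). It was lowest in TH-like nuclei (136, 182 and 162 CPM), with -1.56 ± 0.15 (adjusted p = 1.2e-07). Gria2 was highest in Trpm8-like nuclei, at 249, 339 and 323 CPM, with 1.65 ± 0.18 (adjusted p = 1.4e-06).

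Of the NMDA genes, Grin1 ran from 63.0 ± 6.22 CPM (mean ± SD, n = 3) in NP1-like to 169 ± 14.9 CPM in Trpm8-like nuclei. It was higher in Trpm8-like nuclei, with a log2 difference of 0.94 ± 0.09 (adjusted p = 1.6e-07), and lower in NP1-like nuclei, with -0.66 ± 0.09 (adjusted p = 7.8e-06). Grin3a was at 374, 380.1 and 341 CPM in Trpm8-like and 326, 321 and 330.2 CPM in PEP-like nuclei and at 21.8, 35.4 and 43.7 CPM in NP1-like nuclei, where its log2 difference was -2.38 ± 0.23 (adjusted p = 1.7e-07). Grin2d was low throughout but stood at 17.6, 15.1 and 15.9 CPM in PEP-like nuclei (157, 90 and 77 UMIs) against 1.32, 0.778 and 0.299 CPM in TH-like nuclei. Its log2 difference in PEP-like nuclei was 2.85 ± 0.27 (adjusted p = 1.6e-07), and PEP-like libraries lay above all others. Grin2a and Grin2b passed in no subtype, with subtype means from 1.54 to 5.03 CPM for Grin2a and from 5.93 to 10.0 CPM for Grin2b. Among delta genes, Grid1 was higher in Trpm8-like (108, 159 and 204 CPM) and NF-like nuclei (158, 134 and 170.4 CPM) and lower in NP1-like (24.4, 29.1 and 23.7 CPM) and PEP-like nuclei (24.9, 19.97 and 28.3 CPM), with log2 differences of 1.44 ± 0.23 (adjusted p = 1.5e-04), 1.44 ± 0.21 (adjusted p = 1.4e-05), -1.51 ± 0.26 (adjusted p = 1.5e-04) and -1.80 ± 0.27 (adjusted p = 4.8e-05).

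Several mGlu genes were high in 1 or 2 subtypes. Grm3, a group II receptor, stood at 189, 285 and 153 CPM in Trpm8-like nuclei (373, 391 and 144 UMIs) and at no more than 16.01 CPM in the mean of any other subtype. The log2 difference was 5.08 ± 0.17 (adjusted p = 1.9e-13), the largest of any member in any subtype. Grm4, of group III, stood at 55.6, 56.0 and 71.2 CPM in NF-like nuclei and below all of these in every library of the other subtypes, with a log2 difference of 3.27 ± 0.17 (adjusted p = 6.5e-11). Grm5, of group I, was highest in PEP-like (32.9, 43.6 and 33.5 CPM) and NP3-like nuclei (56.3, 9.31 and 17.9 CPM), with log2 differences of 2.10 ± 0.24 (adjusted p = 2.1e-06) and 1.62 ± 0.33 (adjusted p = 0.00127). Grm7 was high in NP1-like (2929, 2768 and 3158 CPM), Trpm8-like (3106, 2464 and 2066 CPM) and PEP-like nuclei (2422, 2143 and 2440.0 CPM) and low in NF-like (666, 243 and 449 CPM) and TH-like nuclei (527, 541 and 664 CPM). It was higher in the former 3, with 1.60 ± 0.17, 1.24 ± 0.18 and 1.03 ± 0.18, and lower in NF-like, TH-like and NP3-like nuclei, with -1.82 ± 0.23, -1.21 ± 0.22 and -0.85 ± 0.21. Grm8 was near the reverse, at 299.8, 399.9 and 494 CPM in TH-like and 446, 338 and 263 CPM in NF-like nuclei against 49.1, 25.4 and 67.4 CPM in NP1-like nuclei, with 2.11 ± 0.26 (adjusted p = 2.7e-06) in TH-like nuclei.

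**Figure D4:**
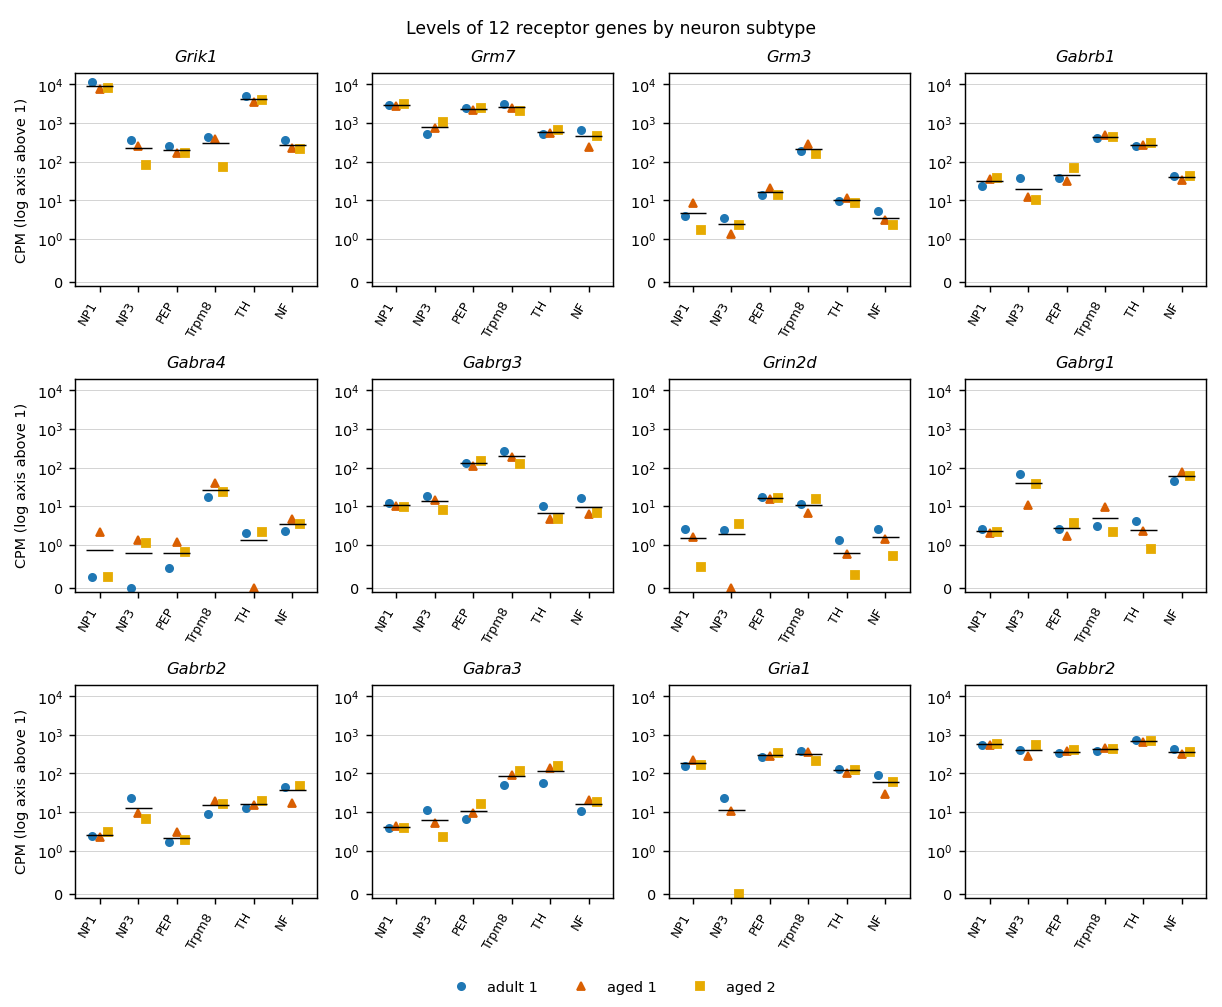
Level of 12 members in the 6 neuron subtypes, in CPM on an axis that is logarithmic above 1. Points are libraries and lines are the mean of 3 libraries. Grm3, Gabra4 and Gabrb1 are highest in Trpm8 nuclei, Grin2d in PEP nuclei, Gabrg1 in NF and NP3 nuclei, and the mean of Gabbr2 runs from 368 to 698 CPM.

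GABA-A subunits differed between subtypes by kind. Among alpha subunits, Gabra2 stood at 475, 542 and 561 CPM in TH-like and 117, 135 and 153 CPM in NP1-like nuclei, with log2 differences of 1.37 ± 0.21 (adjusted p = 4.7e-05) and -1.005 ± 0.25 (adjusted p = 0.00365). Gabra3 was high in TH-like (56.9, 138 and 153 CPM) and Trpm8-like nuclei (50.7, 91.0 and 118 CPM), with 3.10 ± 0.18 (adjusted p = 1.6e-10) and 2.50 ± 0.21 (adjusted p = 7.0e-08). Gabra4 stood at 17.2, 40.0 and 23.4 CPM in Trpm8-like nuclei (34, 55 and 22 UMIs), above every other library, and its log2 difference was 4.39 ± 0.40 (adjusted p = 1.7e-07). Its head-to-head neighbour Gabrb1 was also highest there, at 405, 483 and 439 CPM, with 3.09 ± 0.17 (adjusted p = 2.2e-10), and next in TH-like nuclei (259.8, 266 and 296 CPM), with 2.38 ± 0.17 (adjusted p = 3.8e-09). The other 2 genes of that cluster did not follow: Gabra2 had a log2 difference of -0.01 ± 0.24 (adjusted p = 0.993) in Trpm8-like nuclei and Gabrg1 one of -0.80 ± 0.59 (adjusted p = 0.358). Gabra5 was highest in NF-like nuclei, at 17.4, 18.3 and 23.6 CPM, with 1.77 ± 0.18 (adjusted p = 2.1e-07). Reads of Gabra5 may be shared with an overlapping gene.

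Gabrg1 and Gabrg3, which encode gamma subunits, were high in different subtypes. Gabrg1 was at 45.0, 75.5 and 60.7 CPM in NF-like and 67.6, 10.6 and 38.1 CPM in NP3-like nuclei and below 10 CPM in every library of the other 4 subtypes, with log2 differences of 3.57 ± 0.28 (adjusted p = 6.8e-09) and 2.88 ± 0.37 (adjusted p = 1.1e-05). Gabrg3 was at 272, 185 and 124 CPM in Trpm8-like and 131, 112 and 152 CPM in PEP-like nuclei, with 3.49 ± 0.16 (adjusted p = 9.9e-12) and 2.84 ± 0.15 (adjusted p = 9.4e-11), and at 10.3, 4.67 and 4.78 CPM in TH-like nuclei, with -2.15 ± 0.24 (adjusted p = 1.2e-06). Gabrb2 was highest in NF-like nuclei (43.8, 17.5 and 48.7 CPM), with 2.26 ± 0.24 (adjusted p = 3.4e-07). Gabrd, the extrasynaptic delta subunit, was at 5.58, 10.2 and 10.6 CPM in Trpm8-like nuclei (11, 14 and 10 UMIs) and its log2 difference was 3.66 ± 0.43 (adjusted p = 3.9e-06). The GABA-B gene Gabbr1 ran from 103 ± 6.36 CPM in NP3-like to 185 ± 49.7 CPM in NF-like nuclei (mean ± SD, n = 3), and Gabbr2 from 368 ± 52.0 CPM in NF-like to 698 ± 58.8 CPM in TH-like nuclei. Gabbr2 was higher in TH-like nuclei, with 0.83 ± 0.12 (adjusted p = 1.8e-05), and Gabbr1 lower in NP3-like nuclei, with -0.69 ± 0.14 (adjusted p = 0.00146). Gabbr1 was also higher in NF-like nuclei, with 0.32 ± 0.12 (adjusted p = 0.0268), but its log2 difference there turned to -0.30 with nuclei under 1% Malat1 left out.

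Genes that act with these receptors were counted from lists, beside 36.3% of all genes higher and 30.0% lower in neuron-like nuclei and 20.5% and 14.4% in SGC-like nuclei. The filter on low counts applied here too, so a gene that passed through the sums of 1 class alone had to be higher there. Of 9 auxiliary subunits of AMPA and kainate receptors that were tested, 7 were higher in neuron-like nuclei and 1 lower (list median log2 difference 2.10, all genes 0.06), led by Shisa6, Neto1 and Cacng7 with log2 differences of 4.80 ± 0.44, 3.83 ± 0.27 and 3.06 ± 0.22. Cacng4, also of this list, was the one lower in neuron-like nuclei and was higher in SGC-like nuclei, with 4.11 ± 0.23 (adjusted p = 4.4e-12). Of 13 scaffolds of glutamate receptors, 8 were higher and 4 lower in neuron-like nuclei (median 0.86), and 7 were higher and 1 lower in SGC-like nuclei (median 0.49, all genes 0.01), where Shank2 led with 4.74 ± 0.21 (adjusted p = 8.7e-13). Of 8 scaffolds and auxiliary proteins of GABA receptors, 4 were higher and 1 lower in neuron-like nuclei (median 0.62), led by Kctd16 and Kctd8, partners of GABA-B receptors, with 5.69 ± 0.15 and 5.26 ± 0.24. Of 8 genes of transmitter synthesis, release and uptake, 3 were higher in neuron-like nuclei (among them the vesicular glutamate transporters Slc17a6 and Slc17a7) and 3 lower (median -0.16), which is near the shares over all genes, and 4 were higher in SGC-like nuclei and 1 lower (median 1.21). The SGC-like leaders were the transporters Slc1a2 and Slc6a11, with 4.14 ± 0.28 and 4.07 ± 0.26. The chloride importer Slc12a2 was at 106, 139 and 138 CPM in neuron-like and 491, 569 and 562 CPM in SGC-like nuclei, and the exporter Slc12a5 at 1.33, 0.854 and 0.488 CPM in neuron-like nuclei.

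Aged and adult libraries were then compared within classes. A gene's own spread came from the aged pair alone (1 residual degree of freedom), and the single adult library was taken to share it. The edgeR fit drew that spread toward a trend over all genes, so standard errors and p-values rest largely on spread pooled over genes. They can understate the gap between the aged libraries for a single gene. All comparisons share the adult library. Here and below, counts of members under alternatives such as DESeq2 are given without a share over all genes. They do not show a change particular to members. In neuron-like nuclei 4 of 42 members passed (7.77% of 21623 genes did), near the share over all genes. All 4 were lower in aged libraries, as were most genes called (6.33% of genes were lower). Gabrp, a GABA-A pi subunit, stood at 2.62, 0.907 and 0.907 CPM (161, 34 and 26 UMIs), with a log2 fold change of -1.66 ± 0.39 (adjusted p = 7.4e-04). Grin2a (5.62, 3.496 and 3.04 CPM) and Grm5 (31.8, 20.4 and 20.4 CPM) had log2 fold changes of -0.91 ± 0.31 (adjusted p = 0.0393) and -0.77 ± 0.24 (adjusted p = 0.0196). The aged libraries lay below the adult one for each of these 3. Free RNA held Gabrp at 6.48, 2.23 and 2.25, Grin2a at 8.46, 4.03 and 4.09 and Grm5 at 18.7, 10.5 and 11.7 CPM, which fell in the same way and for Gabrp and Grin2a lay above the neuron-like level, and its part in these calls was not tested. Nuclei with under 1% of UMIs in Malat1, an RNA kept in the nucleus, numbered 724 of 3763, 1079 of 2111 and 474 of 1202, and without them the 3 genes still passed. Grik1 (-0.45 ± 0.24), Grm7 (-0.16 ± 0.24), Gabra2 (-0.32 ± 0.24), Gria4 (-0.28 ± 0.24), Grik3 (-0.57 ± 0.24), Grin1 (0.01 ± 0.24) and Gabbr1 (0.10 ± 0.24) did not pass. By DESeq2 0 of 42 members passed, where 10 had unadjusted p under 0.05 by edgeR, and with equal shares of each subtype 9 did, among them Grik1 (-0.49 ± 0.14 (adjusted p = 0.00785)) and Grik3 (-0.58 ± 0.17 (adjusted p = 0.00968)).

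In SGC-like nuclei 6 of 33 members passed (8.76% of genes). Gabrb1 rose, standing at 9.48, 46.5 and 24.6 CPM (93, 111 and 33 UMIs), with a log2 fold change of 1.84 ± 0.29 (adjusted p = 2.4e-07), or 1.29 and 2.17 with aged replicate 1 or 2 left out. Gria2 (14.2, 37.3 and 29.9 CPM) and Grik2 (1500.4, 2281 and 2093 CPM) rose with 1.14 ± 0.27 (adjusted p = 0.00143) and 0.42 ± 0.13 (adjusted p = 0.0259). The adult levels of Gabrb1 and Gria2 were at or below the carryover share of their neuron-like level and the aged ones above it. In the same nuclei the median share of UMIs in Malat1 fell from 8.98% to 2.58% and 2.71%, and median UMIs per nucleus rose from 3151 to 7505 and 8002.5. Thinned to 1000 UMIs per nucleus, with fewer UMIs by construction, 0 members passed, and the part of depth in these calls was not tested. Grm7, Grm8 and Grik4 fell, with -1.01 ± 0.23, -0.93 ± 0.31 and -0.89 ± 0.27; these 3 were at or below the carryover share in all 3 libraries, and the list of neuronal carryover genes fell there from 626 to 506 and 384 CPM. Grik4 was -1.76 and -0.48 with aged replicate 1 or 2 left out. With free RNA subtracted, Gabrb1 and Gria2 passed, Gabbr2 and Grik1 passed as higher, Grm8, Grik4 and Grik2 did not pass, and Grm7 was not tested for want of UMIs. The log2 value of Grik1, 10.87, was reached only with the subtraction. Not subtracted, Grik1 stood at 112, 106 and 152 CPM in these nuclei and did not pass. By DESeq2 0 of 33 members passed, where 7 had unadjusted p under 0.05 by edgeR. The difference between the aged change in SGC-like and in neuron-like nuclei was tested as an interaction, in which 4 of 43 members passed (1.47% of genes): Gabrb1 (2.01 ± 0.29 (adjusted p = 4.5e-09)), Gria2 (1.69 ± 0.28 (adjusted p = 1.4e-06)), Gabrg3 (1.20 ± 0.32 (adjusted p = 0.0172)) and Gria3 (0.76 ± 0.20 (adjusted p = 0.0171)), each with a higher log2 change in SGC-like nuclei, whereas all genes had a median of -0.12.

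In the Schwann cell and fibroblast classes the members called were mostly lower in aged libraries. Median Malat1 was lower in the aged libraries of all 3 classes, at 2.13% to 2.26% of UMIs against 4.67% to 7.51% in the adult library. In MSC-like nuclei 9 of 26 passed (10.5% of genes), 8 of them lower (6.45% of genes), and the median log2 fold change of members was -0.90. The 8 were Gria2, Grik4, Grid1, Gabrg3, Grik1, Gabbr2, Gria4 and Grm7, from -3.11 ± 0.96 for Gria2 (20, 5 and 0 UMIs) to -1.25 ± 0.31 for Grm7. Carryover genes fell in the same nuclei from 789 to 452 and 348 CPM, and summed MSC markers from 44002 to 16658 and 15195 CPM. Of the 8, 6 (Gria2, Grik4, Grik1, Gabbr2, Gria4 and Grm7) were at or below the carryover share in all 3 libraries. With free RNA subtracted these held too few UMIs for a test, so the part of carryover in their falls was not tested. Of the other 2, Grid1 passed with free RNA subtracted and Gabrg3 did not, and Gria3 (172, 358 and 335 CPM), which rose with 0.92 ± 0.19 (adjusted p = 3.6e-05), passed both ways. In fibroblast-like nuclei 7 of 23 passed (8.96%). Gria3 (162, 352 and 387 CPM) and Grin2b (51.6, 106 and 143 CPM) rose, with 1.12 ± 0.19 (adjusted p = 3.4e-05) and 1.20 ± 0.25 (adjusted p = 6.4e-04), and both passed with free RNA subtracted. Summed NMSC markers, whose class had the highest mean of Gria3, rose in fibroblast-like nuclei from 1039 to 2245 and 2257 CPM and in MSC-like nuclei from 1433 to 2265 and 1945 CPM, and their part in these rises was not tested. The 5 that fell (5.19% of genes) included Grik1, Gabbr2, Grik4 and Gria1, from -1.69 ± 0.27 for Grik1 to -0.98 ± 0.31 for Gria1, and Grik1 and Gabbr2 were at or below the carryover share in all 3 libraries. With free RNA subtracted these 2 were not tested and the other 3 did not pass. In nuclei with more than 1500 genes the log2 value of Gria1 was 0.17. Carryover genes fell from 631 to 378 and 318 CPM. In NMSC-like nuclei 8 of 26 passed (7.07%), 7 of them lower (3.86% of genes). Grik1 had the one higher value, at 103, 282 and 242 CPM (68, 428 and 177 UMIs), with 1.20 ± 0.23 (adjusted p = 1.0e-05). These were 0.0308, 0.116 and 0.0821 of its neuron-like level, below the carryover shares of 0.171, 0.121 and 0.115 in each library, while carryover genes fell from 698 to 511 and 418 CPM. With free RNA subtracted, 0, 324 and 122 UMIs of Grik1 were left. Grid1 (562, 445 and 381 CPM) fell, with -0.59 ± 0.16 (adjusted p = 0.00599). Gabre, Gabra2, Gabrb1, Grm7 and Grik5 also fell, with -2.03 ± 0.58, -1.79 ± 0.49, -1.34 ± 0.41, -0.97 ± 0.33 and -0.73 ± 0.25. Gabra2 and Grm7 were at or below the carryover share in all 3 libraries. With free RNA subtracted, Grid1, Gabrb1, Gabre and Grik5 passed as lower, Gabra2 did not pass (adjusted p = 0.0768), Grm7 was not tested, and Grik1, Gabrg3, Grik4 and Grm8 passed as higher, of which Grik1, Grik4 and Grm8 had 0 adult UMIs left. Summed fibroblast markers rose in NMSC-like nuclei from 397 to 1016 and 967 CPM, and their part in these values was not tested. With aged replicate 1 left out, Gria2 in MSC-like nuclei rests on 0 aged UMIs against 20 adult UMIs, which is at least 3.61-fold lower by a floor of 3 counts in that library, and with aged replicate 2 left out it was -2.63. Gabrg3 there rests on 2 against 25 UMIs in the first case, a ratio of 0.148 (exact 95% interval 0.0170 to 0.593, counting error only), and was -1.40 in the second. The values of Gria4 were -1.93 and -1.05. In NMSC-like nuclei they were -2.65 and -1.47 for Gabra2, -1.12 and -3.05 for Gabre and -1.92 and -0.58 for Grm7. By DESeq2 the members that passed were 0 in MSC-like nuclei, Gria3 in fibroblast-like nuclei and Grik1 in NMSC-like nuclei.

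**Figure D5:**
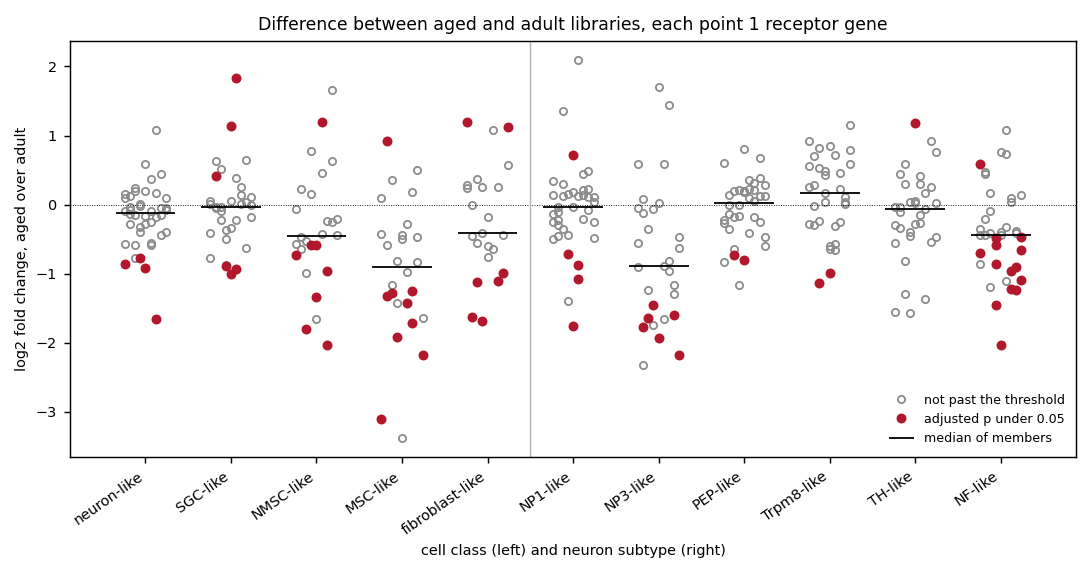
Log2 fold change of members, aged over adult libraries, in 5 classes and 6 neuron subtypes. Each point is 1 member, filled where the adjusted p was under 0.05, and lines are medians. Most filled points lie below 0, and NF-like nuclei hold the most (14).

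Within neuron subtypes, Grik1 fell in NP1-like nuclei, standing at 11472, 7396 and 8082 CPM, with a log2 fold change of -0.71 ± 0.19 (adjusted p = 0.00632), or -0.63 and -0.81 with aged replicate 1 or 2 left out. It also fell in PEP-like (250.02, 172 and 167 CPM), Trpm8-like (445, 380.1 and 72.4 CPM) and NF-like nuclei (364, 227 and 214 CPM), with -0.73 ± 0.18 (adjusted p = 0.0117), -1.14 ± 0.25 (adjusted p = 6.3e-04) and -0.86 ± 0.16 (adjusted p = 9.1e-06). In Trpm8-like nuclei the value was -2.79 and -0.41 with aged replicate 1 or 2 left out. Free RNA held Grik1 at 1261, 1024 and 1233, Grik3 at 229, 147 and 133 and Gabrp at 6.48, 2.23 and 2.25 CPM in the same libraries. In TH-like nuclei, where Grik1 stood at 4850.0, 3469.8 and 3980.1 CPM, the log2 fold change of -0.55 ± 0.22 (adjusted p = 0.459) did not pass. NP1-like nuclei had 5 of 38 members called (13.8% of genes): Grik1, Grik3 (-1.08 ± 0.18 (adjusted p = 1.6e-05)) and Gabrp (-1.76 ± 0.59 (adjusted p = 0.0381)) were among 4 that fell (8.78% of genes), and Grin3a rose (0.72 ± 0.20 (adjusted p = 0.0124)). Grik3 stood at 80.8, 51.2 and 33.6 CPM in NP1-like nuclei, below its level in free RNA, which fell in the same way. PEP-like nuclei had 2 of 36 (3.86%), Grik1 and Grik3 (-0.80 ± 0.21 (adjusted p = 0.0226)). Trpm8-like nuclei had 2 of 33 (1.40%), Grik1 and Gabrg3 (272, 185 and 124 CPM), with -0.99 ± 0.26 (adjusted p = 0.0125) for the latter. TH-like nuclei had 1 of 33 (1.08%), Gabra3, which rose, standing at 56.9, 138 and 153 CPM, with 1.19 ± 0.27 (adjusted p = 0.0423). Without nuclei under 1% Malat1 the calls named in NP1-like and PEP-like nuclei were kept, whereas Grik1 (-1.10 ± 0.68, adjusted p = 0.791) and Gabrg3 (-0.96 ± 0.28, adjusted p = 0.542) in Trpm8-like and Gabra3 (1.16 ± 0.20, adjusted p = 0.0749) in TH-like nuclei did not pass. In Trpm8-like nuclei that setting left out only 1 of 117, 4 of 52 and 0 of 30 nuclei. The log2 values there stayed near -1.14 and -0.99, while the standard error of Grik1 rose from 0.25 to 0.68. Why these calls were lost was not tested. DESeq2 called Grik1 and Grik3 in NP1-like and Grik1 in PEP-like nuclei, and 0 members in Trpm8-like and TH-like nuclei.

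The share of nuclei under 1% Malat1 was higher in both aged libraries than in the adult one in NP1-like, NP3-like, PEP-like, TH-like and NF-like nuclei, and was highest in NF-like nuclei (266 of 585, 443 of 549 and 157 of 195). In NF-like nuclei 14 of 37 members passed (14.6% of genes), 13 of them lower (8.22% of genes), and the median log2 fold change of members was -0.43. The largest were Gabrp (-2.03 ± 0.68), Gabrg3 (-1.46 ± 0.34), Grm5 (-1.23 ± 0.31), Gria1 (-1.22 ± 0.19), Grm7 (-1.10 ± 0.16), Grik4 (-0.97 ± 0.17), Gria2 (-0.90 ± 0.17), Grik1 and Grm8 (-0.71 ± 0.17), and Gabbr1 rose, with 0.59 ± 0.17 (adjusted p = 0.00867). Grm7 stood at 666, 243 and 449 CPM and Gria2 at 197, 118 and 115 CPM. With nuclei under 1% Malat1 left out, none of these 14 passed (Gabrp was not tested for want of UMIs) and 1 other member, Gabra3, did. The 319, 106 and 38 nuclei left gave log2 values of -1.76 ± 0.48 for Grm5, -1.46 ± 0.47 for Gabrg3, -0.93 ± 0.25 for Grm7, -0.83 ± 0.22 for Grik4 and -0.69 ± 0.22 for Gria2, against -0.40 ± 0.29 for Gria1, 0.05 ± 0.23 for Gabbr1 and 0.10 ± 0.26 for Grm8. In NP3-like nuclei 6 of 29 passed (2.25% of genes), all lower, as were 231 of the 246 genes called (2.12% of genes): Grm5, Gabrb1, Grm8, Gabra2, Gabrg1 and Gria3, from -2.18 ± 0.51 for Grm5 (95, 7 and 16 UMIs) to -1.46 ± 0.43 for Gria3. Of NP3-like nuclei, 4 of 87, 43 of 64 and 15 of 36 had under 1% of UMIs in Malat1, and without them 0 of the members passed. The 83, 21 and 21 nuclei left gave log2 values of -2.68 ± 0.87 for Gabrb1 and -1.42 ± 0.67 for Grm5, and from -0.75 to -0.40 for the other 4. Thinned to 1000 UMIs per nucleus, with fewer UMIs by construction, 0 members passed in NP3-like nuclei and the log2 value of Grm8 was 0.036. With aged replicate 1 or 2 left out, the values were -0.94 and -2.88 for Gabrg1, -0.92 and -2.32 for Gria3, -1.76 and -2.80 for Grm5 and -3.02 and -1.10 for Grm8 in NP3-like nuclei. In NF-like nuclei Gabrb2 was 0.00 and -1.46, and Gabrp was -1.78 with aged replicate 2 left out and rests on 2 aged against 36 adult UMIs with aged replicate 1 left out, a ratio of 0.166 (exact 95% interval 0.0194 to 0.647). DESeq2 called 4 members in NF-like nuclei (Grik4, Gria2, Grik1 and Grm8) and 0 in NP3-like nuclei.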

How the data were processed

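Nuclei of 3 libraries were profiled by PIP-seq. The authors made the deposited count matrices (UMIs per gene and barcode, not normalized) with PIPseeker, and the submitters' processing notes name mm10. Strand use in counting is not given in the sources used here. The labels give 3 and 21 months and male mice. The series text gives other ages for both groups and the study's methods another sex for aged mice. Ages were taken from the labels.

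Barcodes with more than 1000 genes were kept. Fixed markers gated nuclei into classes and neurons into subtypes. Nuclei with markers of several classes (1146, 746 and 258) were set aside, and no doublet caller was run. Also set aside were nuclei with neuron markers between the limits for neurons and for other classes (1372, 489 and 203). So were nuclei nearest to free RNA (139, 75 and 23) and nuclei assigned to no class (526, 119 and 53). UMIs were summed per class and library. Classes with under 20 nuclei in a library were not tested, and nuclei gated as cycling and erythroid (23, 38 and 52) were set aside. Each class or subtype was compared with the mean of the others, with library as a block, and aged with adult libraries within classes, by edgeR 4.0.16 (quasi-likelihood, TMM, R 4.3.3) over all genes, with Benjamini-Hochberg adjustment and a threshold of 0.05. The authors' test on single nuclei was not used, since nuclei of a library are not replicates. DESeq2 1.42.0, other scalings, filters, gates, thinning to 1000 UMIs, left-out libraries, free RNA subtraction (free RNA taken from barcodes with 10 to 100 UMIs) and equal subtype shares were alternatives. Gene positions come from GENCODE M21.

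Members and lists were chosen with earlier results of these data known. The limit on non-neuronal markers and the need for 2 subtype markers were set after first results were seen. Named members were those past the threshold with the largest differences, plus fixed members of each family, and others are given to account for all members. On simulated counts the class test recovered 81% of 2-fold and 98.8% of 4-fold changes among 11724 genes (6 false calls), and the subtype test 57% and 93% among 15110 genes (7 false calls). The age test recovered 6.19% and 77.8% in neurons (21556 genes, 5 false calls) and 8.33% and 67.7% in NP3-like nuclei (10671 genes, 4 false calls), and the interaction 1% and 17% (20955 genes, 0 false calls). Apart from the changed genes, each simulated gene had the same mean share in all sums compared, and 1 fixed dispersion served all genes. Real sums differ more, so their recovery and false calls may differ. Some members and list genes are counted but not reported here by name. CPM values carry counting error and library spread only.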

Additional observations from a re-analysis of the deposited data

Results flagged for a closer look

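The aged minus adult log2 change of Gabrb1 was higher in SGC-like than in neuron-like nuclei by 2.01, that of Gria2 by 1.69, that of Gabrg3 by 1.20 and that of Gria3 by 0.76, each past the threshold of edgeR's interaction test over all genes. In mural-like nuclei, a class too small for the tests with 47 adult nuclei, 21 of aged replicate 1 and 4 of aged replicate 2, Grm7 stood, in the same order, at 1048, 361.1 and 1295 CPM, from 135, 30 and 17 UMIs. The list of neuronal carryover genes stood there at 753, 530 and 762 CPM, and its part in the Grm7 values was not tested.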

How the results depend on the processing

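Of 226 counts of members past the threshold under alternatives, 178 stayed within 1.5 times the value reported. For the age comparisons, DESeq2 called 0 members in MSC-like, SGC-like, neuron-like, NP3-like, TH-like and Trpm8-like nuclei, 1 in NMSC-like, fibroblast-like and PEP-like, 2 in NP1-like and 4 in NF-like nuclei, and it called 1 between classes in B cell-like nuclei. Thinned to 1000 UMIs, the age counts were 0 in NMSC-like, SGC-like, NP1-like, NP3-like, PEP-like and Trpm8-like nuclei, 2 in neuron-like, 3 in fibroblast-like and 4 in MSC-like and NF-like nuclei, with fewer UMIs by construction. A stricter gate gave 4 in NMSC-like, 2 in neuron-like, 9 in NP1-like, 3 in NP3-like and 0 in Trpm8-like nuclei. With no filter on low counts there were 5 in NMSC-like and 3 in NP3-like nuclei by age, and 8 in B cell-like, 18 in NMSC-like and 13 in endothelial-like nuclei between classes. RLE scaling gave 1 in PEP-like nuclei, and equal subtype shares 9 in neuron-like nuclei. Of alternatives chosen after seeing the data, leaving out nuclei of low Malat1 gave age counts of 1 in NF-like, 8 in NP1-like and 0 in NP3-like, TH-like and Trpm8-like nuclei, and free RNA subtraction 3 in MSC-like and in fibroblast-like nuclei. These counts are given without the share over all genes under the same alternative, so they do not show a change particular to members. The cause of these changes was not tested.

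With 1 library left out, counts between classes ran from 0 to 3 in B cell-like, 4 to 15 in MSC-like, 8 to 16 in NMSC-like, 13 to 16 in SGC-like, 2 to 11 in endothelial-like, 11 to 17 in fibroblast-like, 7 to 15 in myeloid-like and 24 to 28 in neuron-like nuclei. Between subtypes they ran from 21 to 24 in NF-like, 23 to 24 in NP1-like, 15 to 18 in NP3-like, 21 to 25 in PEP-like, 20 to 23 in TH-like and 22 to 26 in Trpm8-like nuclei. Age comparisons without an aged library gave values with no test, and the interaction was not run so.

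Log2 values changed sign for Grik4 by age in SGC-like nuclei with free RNA subtracted (7.61, from an adult sum of 0 UMIs), Gria1 by age in fibroblast-like nuclei with more than 1500 genes (0.17), Grm8 by age in NF-like nuclei without low Malat1 (0.10), Gabrb2 by age in NF-like nuclei without aged replicate 1 (0.00039, and -1.46 without aged replicate 2) and Grm8 by age in NP3-like nuclei thinned (0.036). Between classes they did so for Grin1 in fibroblast-like nuclei without the adult library (0.018, and -1.38 without aged replicate 2) and for Grik1 (0.86) and Grm7 (1.54) in myeloid-like nuclei with free RNA subtracted, and between subtypes for Gria4 (0.40) and Gabbr1 (-0.30) in NF-like nuclei without low Malat1. A further 85 sign changes, with neither value past the threshold, are not listed.

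Classes and subtypes of a library come from the same nuclei preparation, so library was a block. With no replicate block, 26 members were called in neuron-like, 14 in SGC-like and 9 in NMSC-like nuclei, and no count between classes or subtypes moved by over 1.5 times. No paired analysis was possible because the adult and aged groups share only replicate number 1. With 1 adult library, the age tests missed most 2-fold changes in simulated counts, and the interaction most 4-fold ones too.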
